A study of Mus musculus with 4 samples.

Results

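The genes described here are 10 activity-induced immediate early genes, taken by symbol from the deposited table of 32681 genes: Fos, Fosb, Fosl2, Jun, Junb, Jund, Egr1, Arc, Npas4 and Nr4a3. All 10 were listed, and 9 passed the filter on low counts. Fosb did not, with 3 to 8 reads per library, and is given by its values alone. The libraries were made from total RNA of primary neuronal cultures, prepared from the neocortex of wild-type CD-1 mice at embryonic day 13. They compared 2 cultures given a control short hairpin RNA (shRNA) by transfection with 2 that received an shRNA against DcpS, an enzyme that clears the cap remnant of mRNAs degraded from the 3′ end. All cultures were kept in Neurobasal medium with B27, sodium pyruvate, GlutaMax and penicillin/streptomycin. The labels name no stimulation, no time in culture and no share of transfected cells, so the values are averages over transfected and other cells in culture medium. Values are normalised read counts, that is reads per gene divided by 1 factor per library. A gene was called where the adjusted p was under 0.05 (limma on log2 of the normalised read count plus 1, Benjamini-Hochberg over all 18110 genes tested), and fold changes below are on that log2 scale, where changes of genes with few reads are understated.

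Immediate early genes are switched on within minutes of synaptic activity or growth factor signalling, without new protein synthesis. Calcium and MAP kinase signals reach them through factors already present in the nucleus, among them CREB and SRF. Their mRNAs are mostly short-lived, and many carry AU-rich elements in the 3′ untranslated region (UTR) that speed decay. Proteins of the Fos and Jun families pair to form the transcription factor AP-1, Egr1 and Npas4 are transcription factors of their own, Nr4a3 is an orphan nuclear receptor, and Arc is a synaptic protein that promotes removal of AMPA receptors.

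Dcps itself had a normalised read count of 499.8 and 506.6 in the controls, against 114.5 and 119.6 with DcpS shRNA, which left 23.3% of the control mean. The recovered reads ran from 17754768 to 21793685 per library, so a count of 0 allows up to 3 reads, or 0.138 to 0.169 CPM (reads scaled to a common library total), counting error only. The neuron marker list (16 of 16 genes detected, none at 0) summed to 6010 and 5907 CPM in the controls and to 5753 and 5731 CPM with DcpS shRNA. The fibroblast list (7 of 7 detected, none at 0) summed to 567 and 624 CPM in the controls and to 346 and 334 CPM with DcpS shRNA, with 7 of 7 genes called lower. The endothelial and mural list summed to 39.8 and 43.6 CPM against 26.1 and 24.3 CPM, with 3 of 7 tested genes called lower. Within the neuron list Rbfox3 (log2 fold change 0.24) and Slc17a7 (0.52) were called higher and Snap25 (−0.26) and Syt1 (−0.22) lower. The interneuron list summed to 18.3 and 18.7 CPM in the controls and to 16.7 and 16.7 CPM with DcpS shRNA. The microglia list summed to 7.24 and 7.25 CPM against 6.24 and 7.21 CPM. No gene of either list was called, beside 5.79% of all genes tested. Nes of the 7 progenitor markers was called higher (0.27), as was Mbp of the 5 tested oligodendrocyte lineage markers (0.47). In the astrocyte list, 3 of 6 tested genes were called lower, Gfap (−0.91), Aqp4 (−1.13) and Gja1 (−0.67), and 1 higher, Aldoc (0.21). The median log2 fold change of that list was −0.55, while its sum was 381 to 390 CPM in the 4 libraries. Immediate early genes are expressed in these cells as well as in neurons. In bulk RNA fewer cells of a type and less RNA per cell cannot be told apart, and the part of these cells in the values below was not tested. The labels do not tie the cultures to separate litters, and p-values therefore reflect how far these samples scatter, which may be technical only.

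With DcpS shRNA, 4 of the 9 tested genes changed, and not in 1 direction. Fosl2 and Nr4a3 fell, and Jun and Arc rose. Fos, Junb, Jund, Egr1 and Npas4 were not called. Over all genes tested, 5.79% were called, 2.14% higher and 3.65% lower. The members were chosen with earlier results of these data known, so setting their share beside that of all genes is no test. The median log2 fold change of the 9 genes was 0.07, beside 0.000742 over all genes tested. The groups did not overlap for 4 of the 9, the called genes, and for 48.4% of all genes tested. edgeR called the same 4 genes, at 5.95% of all genes tested, and DESeq2 called 1 of them, Fosl2, at 2.47% of all. The smallest two-sided p that an exact permutation of 2 libraries against 2 allows is 0.333, so these calls rest on the spread that limma pools across genes.

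**Figure D1:**
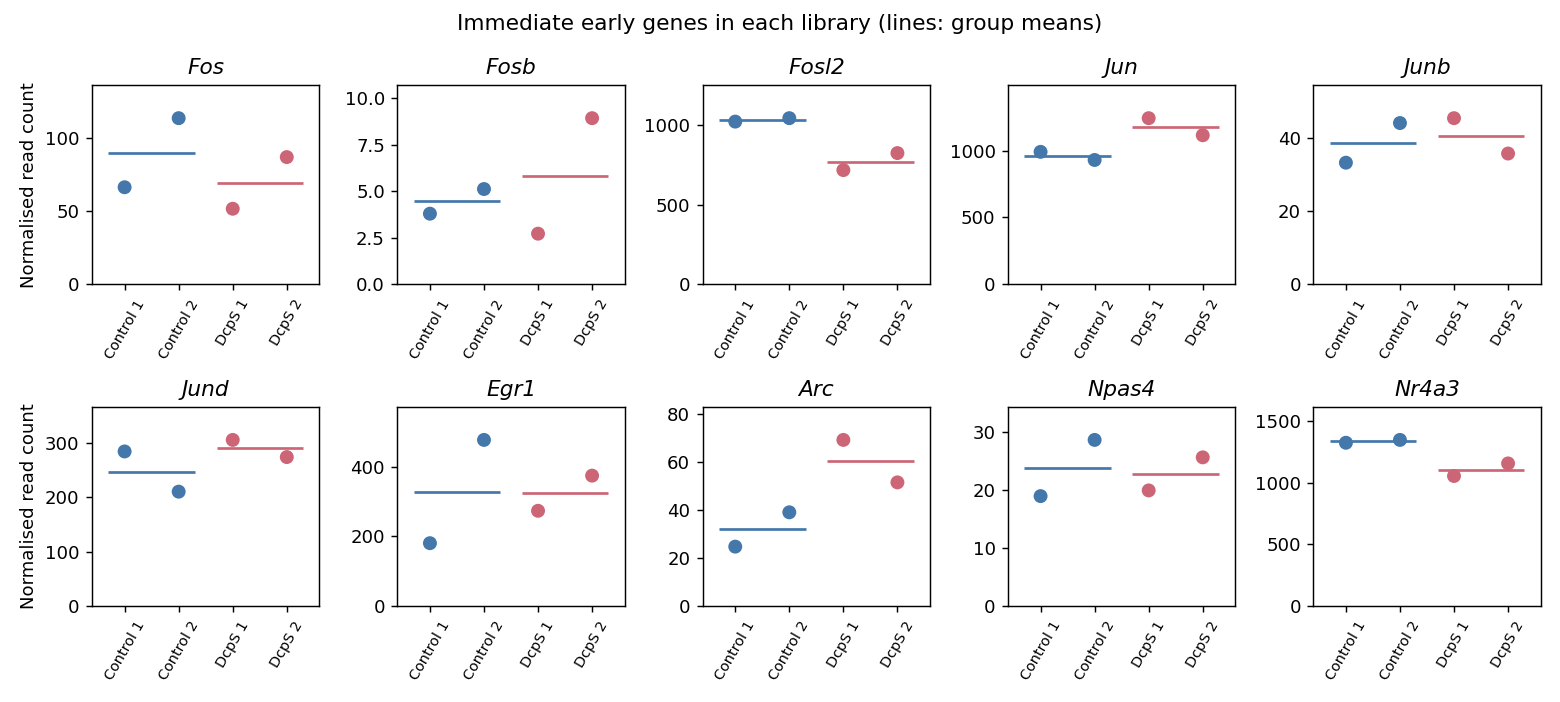
Normalised read count (y axis, from 0) of each of the 10 genes in the 4 libraries (x axis), with controls in blue, DcpS shRNA in red and lines at the group means. The DcpS shRNA points lie below both controls for Fosl2 and Nr4a3 and above both for Jun and Arc, whereas the groups overlap for the other 6 genes.

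Among the Fos family, Fosl2 fell and Fos was not called. Fosl2 encodes Fra-2, a Fos-family partner of Jun proteins that lacks the transactivation domain of Fos. It had normalised read counts of 1022 and 1044 in the controls, against 718 and 825 with DcpS shRNA. Both DcpS shRNA libraries lay below both controls, and the mean went from 1033 ± 15.3 to 771 ± 75.6 (SD, n = 2 per group), or 74.6% of the control mean. The log2 fold change was −0.42 (SE 0.07, 95% confidence interval −0.58 to −0.27, limma, Benjamini-Hochberg adjusted p 0.00172). A fit without 1 library sets 1 library against 2, and takes the spread from the group that still has 2 libraries and from limma's pooling across genes, so the lone library is assumed to vary like the other group. Under that assumption Fosl2 was the 1 gene of the 10 that stayed called with each library left out, with fold changes of −0.53 to −0.33, and in edgeR (adjusted p 0.000987) and DESeq2 (adjusted p 0.00392).

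Fos, the family's founding member and the standard marker of recently active neurons, differed more between libraries of 1 group than between groups. It had 66.5 and 114 normalised reads in the controls, against 51.8 and 87.2 with DcpS shRNA. In each group the higher library had about the same ratio to the lower, 1.71 in the controls and 1.68 with DcpS shRNA. The log2 fold change was −0.37 (SE 0.28, interval −0.997 to 0.261, limma, Benjamini-Hochberg adjusted p 0.553). It was −0.75 without control 1 and 0.02 without control 2, neither of them called. Fosb, whose short splice form ΔFosB accumulates with repeated stimulation, had 3.80 and 5.13 normalised reads in the controls, against 2.73 and 8.94 with DcpS shRNA. At 4 and 5 reads against 3 and 8, a difference in Fosb was not detectable at this depth.

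Sequences were read to show what the members carry in the regions through which these genes are commonly regulated. An AU-rich pentamer, ATTTA, occurred in the annotated 3′ UTR of 9 of the 10 genes (Arc had none) and of 70.3% of the 13798 tested genes scanned. The longer nonamer TTATTTATT occurred in 2 of the 10, Fos and Fosl2, and in 8.62% of tested genes. The 25 bases around each nonamer are shown 5′ to 3′ on the plus strand of GRCm38, with the nonamer in capitals, at chr12:85477105-85477129 for Fos and chr5:32156873-32156897 for Fosl2:
Fos: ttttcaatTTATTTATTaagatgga
Fosl2: ttattttaTTATTTATTttaaatgt
The nonamer was thus present in 1 gene that fell and in 1 that was not called. A pair of 7-base words shared with the Dcps 3′ UTR, ACGTGCA and CACGTGC, was also counted, because an earlier look at these data found either word often in lower genes. Its share in lower genes restates that earlier look and is no independent support for it. The sequence of the hairpin is not given in the sources used here, so a match between it and these words was not tested. Either word occurred in 7.28% of tested genes scanned, in 32% of the genes called lower, and in 0 of the 10 immediate early genes, Fosl2 and Nr4a3 included.

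Promoters were taken from RefSeq (GRCm38.p6), from 250 bases before to 50 bases after the annotated start, which matched 8 of the 10 genes, with Arc and Egr1 not matched. The RefSeq and GENCODE starts differ for some of them. The RefSeq start lies inside the GENCODE gene by 671 bases for Fosl2, 345 for Npas4 and 152 for Nr4a3, so the windows of Fosl2 and Npas4 fall wholly within those genes, whereas the window of Jund lies wholly upstream of its GENCODE start. Both strands were searched for TGACGTCA (the cAMP response element, CRE), TGACG (its core, contained in it), TGANTCA (the AP-1 site), TGACATCA (an AP-1-like site), GCGNGGGCG (the EGR site), TATAAA and the CArG box of SRF. The 3 promoters of called genes are shown because these genes moved in different directions, each 5′ to 3′ along the gene with matches in capitals. They lie at chr5:32136222-32136521 (plus strand) for Fosl2, chr4:48045055-48045354 (plus strand) for Nr4a3 and chr4:95052173-95052472 (minus strand) for Jun:
Fosl2: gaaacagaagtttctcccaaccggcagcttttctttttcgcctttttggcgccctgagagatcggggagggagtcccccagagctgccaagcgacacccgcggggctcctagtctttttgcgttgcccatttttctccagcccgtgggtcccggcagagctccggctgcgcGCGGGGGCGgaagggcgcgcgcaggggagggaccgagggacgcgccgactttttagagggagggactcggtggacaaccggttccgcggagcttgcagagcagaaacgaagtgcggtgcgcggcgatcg
Nr4a3: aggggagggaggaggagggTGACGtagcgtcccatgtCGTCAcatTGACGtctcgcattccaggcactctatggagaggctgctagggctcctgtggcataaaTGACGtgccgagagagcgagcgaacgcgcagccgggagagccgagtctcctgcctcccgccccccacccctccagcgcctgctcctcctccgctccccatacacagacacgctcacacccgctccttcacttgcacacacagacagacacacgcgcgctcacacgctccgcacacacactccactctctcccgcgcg
Jun: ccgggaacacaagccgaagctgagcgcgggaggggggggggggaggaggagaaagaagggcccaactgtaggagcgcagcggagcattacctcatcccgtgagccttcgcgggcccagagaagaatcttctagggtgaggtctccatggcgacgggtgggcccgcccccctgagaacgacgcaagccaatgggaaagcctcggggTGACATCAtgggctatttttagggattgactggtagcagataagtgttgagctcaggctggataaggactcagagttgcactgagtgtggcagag
In the Fosl2 window the only match was 1 EGR site, which starts 79 bases before the RefSeq start and which 5.55% of all 27025 promoters hold. Nr4a3 held the core CRE at 4 positions, 231, 213, 205 and 147 bases before the start. The core CRE was found in 5 of the 8 promoters (Nr4a3, Fos, Fosb, Junb and Npas4) and in 21% of all promoters. In Jun the match was TGACATCA, 45 bases before the start, which 3.76% of all promoters hold. The full CRE, the AP-1 site and the CArG box were in 0 of the 8 windows, against 1.88%, 7.93% and 1.57% of all promoters. The EGR site was in 2 of the 8 (Fosl2 and Fosb) and TATAAA in 2 (Junb and Fos), against 5.55% and 14.2% of all promoters. Sites more than 250 bases before the start were not searched, so these counts hold for the windows only. Fosl2, Nr4a3 and Jun shared no motif of this search, and the promoter of Arc was not searched.

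Among the Jun family, Jun rose and its paralogs were not called. Jun encodes c-Jun, the main dimer partner of Fos proteins, which is also induced by axonal injury and stress kinase signalling. It had normalised read counts of 991 and 930 in the controls, against 1243 and 1115 with DcpS shRNA, so both DcpS shRNA libraries lay above both controls. The mean went from 961 ± 43.0 to 1179 ± 90.3 (SD, n = 2 per group), 123% of the control mean. The log2 fold change was 0.29 (SE 0.07, interval 0.15 to 0.44, limma, Benjamini-Hochberg adjusted p 0.0154). The call ended without control 2 (adjusted p 0.124), without DcpS shRNA 1 (0.0707) and with DESeq2 (0.0812). The antisense gene Junos overlaps Jun and had 20.0 to 26.6 normalised reads per library. Whether counting used strand is not given in the sources used here.

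Jund, whose protein is present at rest and acts as a slower AP-1 partner, had 284 and 210 normalised reads in the controls, against 305 and 274 with DcpS shRNA. The groups overlapped, and the log2 fold change was 0.24 (SE 0.13, interval −0.03 to 0.52, limma, Benjamini-Hochberg adjusted p 0.346). It ran from 0.03 without control 2 to 0.46 without control 1 (adjusted p 0.051), and was called in neither. Junb, a weaker activator that can restrain Jun, had 33.3 and 44.1 normalised reads in the controls, against 45.4 and 35.8 with DcpS shRNA. Its log2 fold change was 0.07 (SE 0.24, interval −0.45 to 0.59, limma, Benjamini-Hochberg adjusted p 0.921), and it turned to −0.13 without control 1. Junb is overlapped on the other strand by Prdx2, which had 8802 to 9364 normalised reads per library, and without strand the reads of the shared stretch could belong to either gene.

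Summed per exon length, the Fos family total was lower and the Jun family total higher with DcpS shRNA, while the make-up of each family overlapped between groups. In RPKM, that is CPM per kilobase of exon, Fos, Fosb, Fosl1 and Fosl2 together were at 6.83 and 8.03 in the controls, against 4.90 and 6.34 with DcpS shRNA. Fosl2 made up 78.0% and 67.8% of that sum in the controls, against 76.4% and 67.7% with DcpS shRNA. Jun, Junb and Jund together were at 24.99 and 22.1 RPKM in the controls, against 29.9 and 26.7 RPKM with DcpS shRNA. Jun made up 62.7% and 66.8% of its family in the controls, against 65.8% and 66.1% with DcpS shRNA. Neither total overlapped between groups, as held for 48.4% of all genes tested, and neither total was tested. The sums rest mostly on the called genes Fosl2 and Jun, so they restate those calls.

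Of the remaining transcription factors Nr4a3 fell, while Egr1 and Npas4 were not called. Nr4a3 (NOR-1) binds DNA as a nuclear receptor without a known natural ligand. It had 1325 and 1349 normalised reads in the controls, against 1056 and 1158 with DcpS shRNA, with both DcpS shRNA libraries below both controls. The mean went from 1337 ± 16.3 to 1107 ± 72.1 (SD, n = 2 per group), 82.8% of the control mean, and the log2 fold change was −0.27 (SE 0.06, interval −0.41 to −0.14, limma, Benjamini-Hochberg adjusted p 0.0147). The call ended without control 2 (adjusted p 0.0868), without DcpS shRNA 1 (0.0524) and with DESeq2 (0.0826). Its paralog Nr4a2 had 519 and 457 normalised reads in the controls, against 392 and 412 with DcpS shRNA, a log2 fold change of −0.28 that was not called (adjusted p 0.0847).

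Egr1, a zinc-finger factor induced through SRF and MAP kinase signalling, had the widest spread of the 10 genes between the controls. It had normalised read counts of 181 and 477 in the controls, against 273 and 374 with DcpS shRNA, so both DcpS shRNA libraries lay between the controls. The control mean was 329 ± 210 and the DcpS shRNA mean 324 ± 71.3 (SD, n = 2 per group), and the log2 fold change was 0.12 (SE 0.70, interval −2.59 to 2.83, limma, Benjamini-Hochberg adjusted p 0.958). The call depended on which control was left out. Without control 1 Egr1 was called lower (log2 fold change −0.57, adjusted p 0.0359), and without control 2 it was called higher (0.82, adjusted p 0.000885). Both fits take the spread of the lone control from the DcpS shRNA pair, which lay much closer together than the controls did. In edgeR and DESeq2 the fold change of Egr1 was below 0, at −0.02 in each.

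Npas4, a factor of neurons that responds to calcium influx more selectively than the others, had 19.0 and 28.7 normalised reads in the controls, against 20.0 and 25.7 with DcpS shRNA. These values rest on 20 to 28 reads per library. For the library with 20 reads the exact Poisson 95% interval was 12.2 to 30.9 reads, counting error only, which covers the reads of all 4 libraries. The log2 fold change was −0.04 (SE 0.31, interval −0.71 to 0.62, limma, Benjamini-Hochberg adjusted p 0.967), with the sign turned to 0.24 without control 2 and 0.13 without DcpS shRNA 1.

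Arc had the largest change of the 10 genes. Its mRNA is carried into dendrites, and it is the member of the list that encodes a synaptic protein and not a transcription factor. It had 24.7 and 39.0 normalised reads in the controls, against 69.1 and 51.4 with DcpS shRNA, from 26 and 38 against 76 and 46 reads. Both DcpS shRNA libraries lay above both controls, and the mean went from 31.8 ± 10.1 to 60.2 ± 12.5 (SD, n = 2 per group), 189% of the control mean. The log2 fold change was 0.92 (SE 0.26, interval 0.38 to 1.46, limma, Benjamini-Hochberg adjusted p 0.0452). Arc was called in edgeR (adjusted p 0.0378) and not in DESeq2 (0.290). The call ended without control 1 (adjusted p 0.297, fold change 0.60) and without DcpS shRNA 1 (0.197, fold change 0.71).

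**Figure D2:**
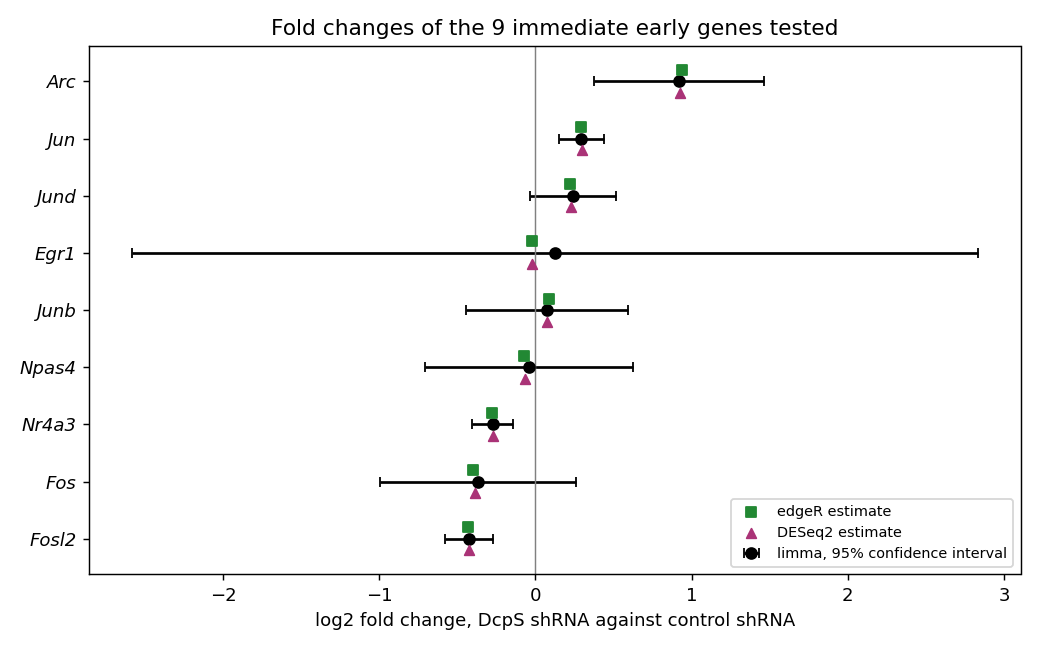
Log2 fold change of DcpS shRNA against control (x axis) for the 9 genes tested (y axis), with limma estimates and their 95% confidence intervals in black, edgeR estimates as green squares and DESeq2 estimates as purple triangles. The intervals of Arc, Jun, Nr4a3 and Fosl2 leave out 0, and that of Egr1 runs from −2.59 to 2.83.

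**Figure D3:**
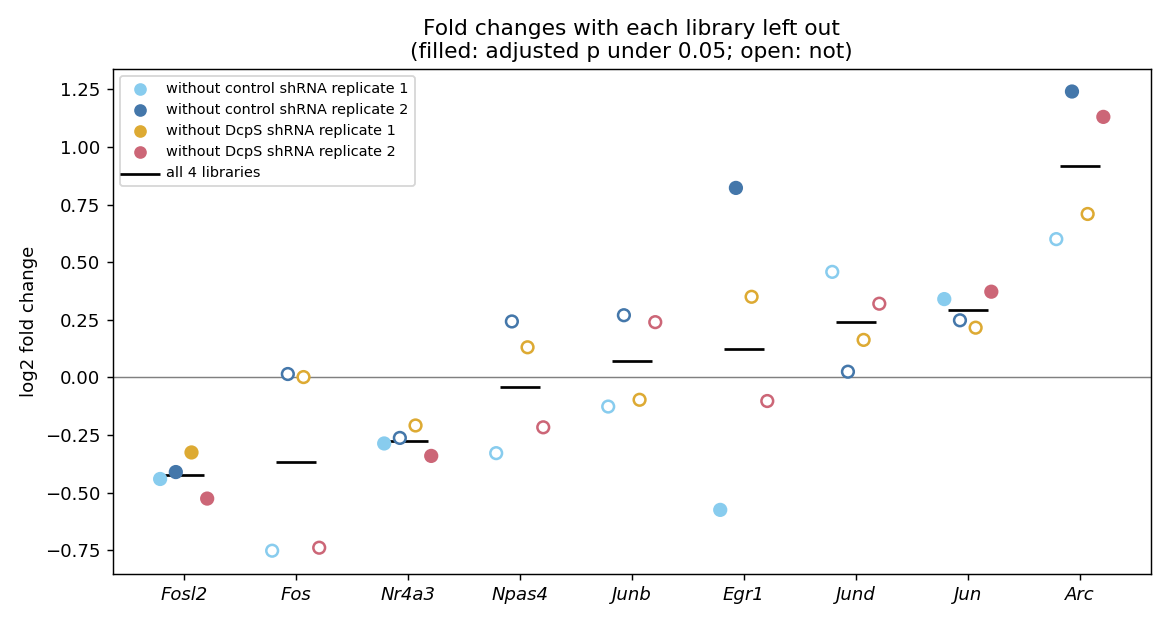
Log2 fold change (y axis) of the 9 genes tested (x axis) when 1 library is left out, with 1 colour per left-out library, filled points at an adjusted p under 0.05 and black bars for all 4 libraries. Fosl2 stays filled at every setting, and Egr1 is filled on both sides of 0.

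The genes whose libraries followed Arc most closely were ranked by the root mean square difference of log2 values centred over the 4 libraries, among tested genes with at least 5 CPM. They were Dach2, a transcriptional cofactor (0.19), Tmem63c, a transmembrane protein of the TMEM63 family (0.22), and Plxnd1, a semaphorin receptor (0.26). Dach2 had 71.3 and 102 normalised reads in the controls, against 177 and 183 with DcpS shRNA, and Plxnd1 had 1244 and 1309 against 2153 and 2130. Both were called higher. Tmem63c had 88.4 and 113 against 160 and 133 and was not called (log2 fold change 0.54, limma, Benjamini-Hochberg adjusted p 0.0593). Tmem63c was called in limma with no filter (adjusted p 0.0355) and with the replicate block (0.00896), and in edgeR with the block (0.0191). Its fold change was 0.72 without control 2 and 0.67 without DcpS shRNA 2. With 4 libraries such a ranking only describes these samples.

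Levels were compared between genes per exon length, in RPKM over the union of annotated exons. In the controls Jun was highest at 15.2 ± 0.667 RPKM, followed by Nr4a3 (11.3 ± 0.148), Jund (7.48 ± 1.57), Fosl2 (5.39 ± 0.0845), Egr1 (3.70 ± 2.36), Fos (1.94 ± 0.720), Junb (0.848 ± 0.169), Arc (0.526 ± 0.167), Npas4 (0.291 ± 0.0840) and Fosb (0.0361 ± 0.00762, SD, n = 2 each). The neighbours Fosl2 and Egr1, and Egr1 and Fos, overlapped between the control libraries, and the other neighbours in that order did not. With DcpS shRNA the means of Arc and Junb changed places, at 0.994 ± 0.207 and 0.890 ± 0.151 RPKM, with overlapping libraries. Nr4a3 and Jund overlapped as well, at 8.91 and 9.75 RPKM against 9.24 and 8.27 RPKM. Of the genes called, Jun, Nr4a3 and Fosl2 were among the highest and Arc among the lowest, and no gene between Fosl2 and Arc was called. Jun, Nr4a3 and Fosl2 also had the most reads of the 10, 738 to 1395 per library. Jund, with 205 to 336 reads, was not called at a log2 fold change of 0.24 (SE 0.13). Nr4a3 was called at −0.27 (SE 0.06). The Jund controls also lay apart, at 284 and 210 normalised reads. The parts of read number and of spread between libraries in these calls were not tested.

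**Figure D4:**
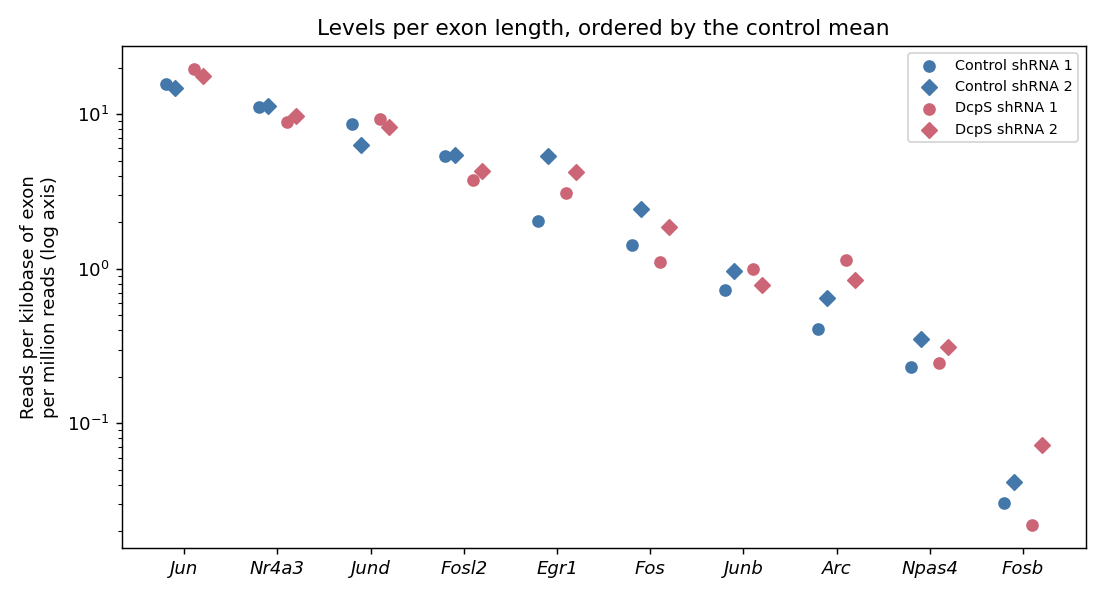
Level of each of the 10 genes (x axis, ordered by the control mean) in RPKM on a log axis, with controls in blue, DcpS shRNA in red, circles for replicate 1 and diamonds for replicate 2. Jun is at 15.7 and 14.7 RPKM in the controls, and Fosb at 0.0220 to 0.0722 RPKM over the 4 libraries.

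Other immediate early genes for transcription factors gave no call. Of the 20 listed, 17 were tested and 0 called by limma, edgeR and DESeq2, beside 5.79%, 5.95% and 2.47% of all genes tested. In limma, 2 of the 17 had an unadjusted p under 0.05. The 2 with the highest counts were Ier5 (log2 fold change 0.03, SE 0.06) and Klf6 (0.02, SE 0.06). Egr2 had 15.2 and 25.6 normalised reads in the controls, against 14.5 and 19.0 with DcpS shRNA, and Egr3 had 8.55 and 22.6 against 9.09 and 11.2, so for both genes control 2 was the highest library, as it was for Fos and Egr1. Nr4a1, the third NR4A receptor, had 119 and 104 normalised reads in the controls, against 124 and 124 with DcpS shRNA.

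Of 24 immediate early genes for signalling and synaptic proteins, 2 rose, 3 fell and 19 did not pass. Over all genes tested, 2.14% were called higher and 3.65% lower. The antiproliferative gene Btg2 rose (log2 fold change 0.40, SE 0.06), from 977 and 1012 normalised reads in the controls to 1324 and 1302, as did the polo-like kinase Plk3 (0.60, SE 0.12), from 230 and 186 to 316 and 310. The prostaglandin synthase Ptgs2 (−1.22, SE 0.33), the matricellular protein Ccn2 (−0.77, SE 0.17) and the MAP kinase phosphatase Dusp4 (−0.27, SE 0.07) fell. Ccn2 is strongly expressed in fibroblasts, whose listed markers fell with it, and their part in its value was not tested. Calls ended for Plk3 without control 2 (adjusted p 0.0522, limma with Benjamini-Hochberg adjustment), for Ccn2 without control 2 (0.121), for Ptgs2 without control 2 (0.470, fold change −0.78) or DcpS shRNA 2 (0.0568), and for Dusp4 without control 1 (0.325) or DcpS shRNA 2 (0.0795). Without control 1 the fold change of Ptgs2 was −1.66. DESeq2 called Btg2 and Plk3, did not call Ccn2 and Dusp4, and gave no adjusted p for Ptgs2. Homer1, a scaffold gene of excitatory synapses, was counted as a whole gene, without telling its transcripts apart. It had 1707 and 1806 normalised reads in the controls, against 1999 and 1985 with DcpS shRNA and was not called (log2 fold change 0.18, limma, Benjamini-Hochberg adjusted p 0.0684).

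Delayed genes that neuronal activity induces after the immediate early wave were called in 3 of 17 cases, beside 5.79% of all genes tested. The neuropeptide gene Npy rose (log2 fold change 1.13, SE 0.24), from 21.9 and 27.7 normalised reads in the controls to 55.4 and 54.8. These values rest on 23 and 27 reads against 61 and 49. The synaptic pentraxin Nptx1 (−0.43, SE 0.09) and the activin subunit Inhba (−0.39, SE 0.09) fell. The neurotrophin gene Bdnf had 27.6 and 21.5 normalised reads in the controls, against 26.3 and 38.0 with DcpS shRNA and was not called (adjusted p 0.552). The call of Inhba ended without control 2 (adjusted p 0.128, limma with Benjamini-Hochberg adjustment), and DESeq2 called none of the 3.

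Upstream, 4 of 44 calcium, CREB, SRF and MAP kinase regulators fell and 0 rose, beside 3.65% lower and 2.14% higher over all genes tested. The fold change was above 0 for 22 of the 44 and below 0 for 22. Map2k1, the kinase that activates ERK, had 622 and 650 normalised reads in the controls, against 451 and 484 with DcpS shRNA (log2 fold change −0.45, SE 0.08). The calcium-dependent kinase Camk4 (−0.46, SE 0.11), the SRF partner Elk4 (−0.38, SE 0.08) and Creb1 (−0.18, SE 0.05), the CREB gene itself, also fell. Calls ended for Camk4 without control 1 (adjusted p 0.124, limma with Benjamini-Hochberg adjustment) or DcpS shRNA 2 (0.106), for Elk4 without control 1 (0.0696), and for Creb1 without control 1 (0.205), control 2 (0.362) or DcpS shRNA 2 (0.0504) and with library-total scaling (0.0510). Only Map2k1 of the 4 was called by DESeq2 (adjusted p 0.0125).

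Among 9 tested bZIP partners of AP-1, the stress-response factor Atf4 rose (log2 fold change 0.20, SE 0.05) and Maf fell (−0.54, SE 0.15). Over all genes tested, 5.79% were called. The call of Atf4 ended without control 1 (adjusted p 0.334, limma with Benjamini-Hochberg adjustment) or control 2 (0.142), and that of Maf without any 1 of the 4 libraries (0.0534 to 0.226). DESeq2 called neither. Of 15 proteins that bind AU-rich elements or regulate decay, 0 were called by limma, edgeR and DESeq2, beside 5.79%, 5.95% and 2.47% of all genes tested. In limma, 1 of the 15 had an unadjusted p under 0.05. Hnrnpdl (0.06, SE 0.05) and the neuronal Elavl3 (−0.03, SE 0.05) had the highest counts of that list. Of the 18 genes named from these 6 lists, 10 were called lower, and 4 of those carry either 7-base word in the 3′ UTR (Nptx1, Camk4, Map2k1 and Elk4, not Ptgs2, Ccn2, Dusp4, Inhba, Creb1 or Maf). Either word was in 0 of the 4 called higher and in 1 of the 4 not called, Elavl3, which holds both words. Of all tested genes scanned, 7.28% held either word, and of those called lower 32% did. The words were counted because lower genes of these same data often held them, so this tally is no independent support. The medians of these 6 lists lay between −0.01 and 0.03.

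**Figure D5:**
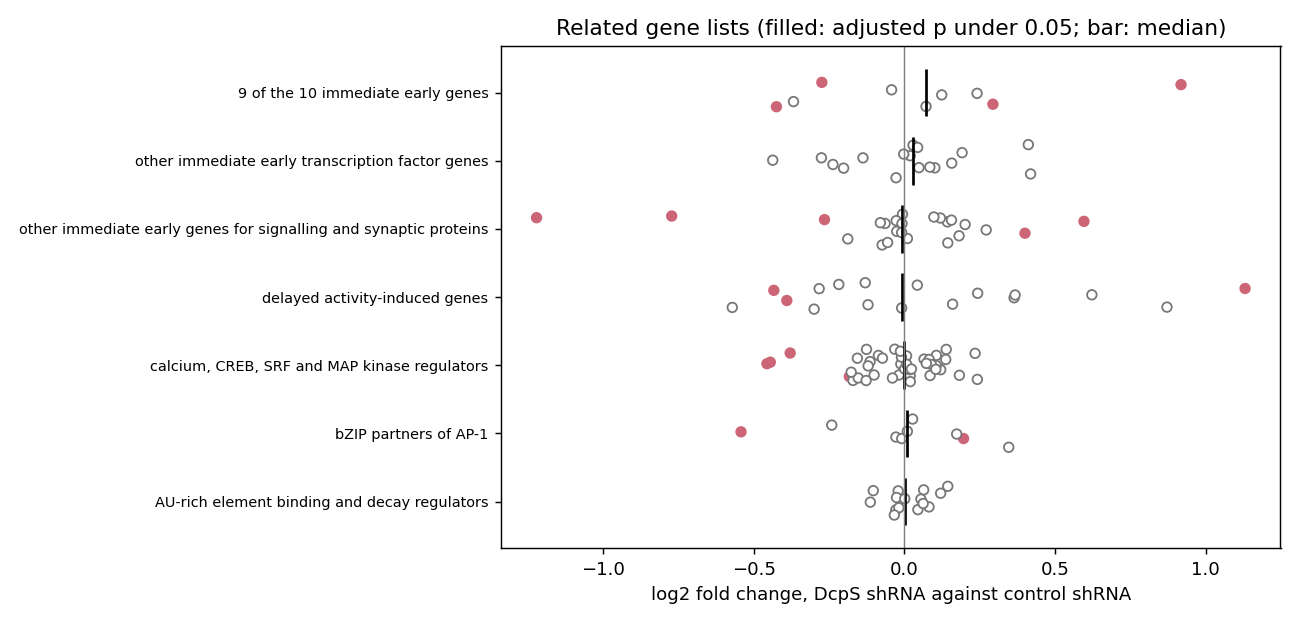
Log2 fold change of DcpS shRNA against control (x axis) for each tested gene of 7 lists (y axis), with filled red points at an adjusted p under 0.05, open points for the rest and black bars at the medians. Called genes lie on both sides of 0 in 4 lists, and 2 lists have none.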

How the data were processed

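The deposited table holds 1 column per library, with no pooling. Its values are a signal made by the authors from read counts: dividing each column by its smallest positive entry gave whole reads for 100% of values (tolerance 0.001). The implied factors, 0.895 to 1.10, equalled median-of-ratios size factors computed from those reads, so a change common to all transcripts is hidden. The submitters' processing notes list HISAT2 2.2.0, SAMtools 1.3.1, Picard, featureCounts, DESeq2 and the build GRCm38. Which annotation was counted, and whether by strand, is not given in the sources used here.

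From these values limma 3.58.1 was fitted with group as the only term to log2(value + 1), using a mean-variance trend and robust empirical Bayes, two-sided, on the 18110 genes kept by edgeR's filterByExpr (minimum count 10). Alternatives were edgeR 4.0.16 quasi-likelihood and DESeq2 1.42.0 on the recovered reads (edgeR called 1077 genes), other scalings, pseudocounts of 0.5 and 5, other filters, each library left out and a replicate block. The limma fit was run on 1 simulated data set, where the share of false calls was above the 0.05 that the adjustment aims at. Exon lengths, 3′ UTRs (longest annotated per gene) and positions are from GENCODE M21 (GRCm38).

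The members and gene lists were chosen with earlier results of these data known. Named beside the members were, per list, up to 6 called genes with the largest fold change, or the 2 of highest mean where fewer than 2 were called, and the 3 genes most like the called member of largest change. Egr2, Egr3, Nr4a1, Nr4a2, Homer1, Bdnf, the 7-base words and the promoter motifs were chosen after values were seen.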

Additional observations from a re-analysis of the deposited data

How the results depend on the processing

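Over all genes 1048 were called in limma, 448 in DESeq2, 1626 with the replicate block in limma, and 594 to 1439 with 1 library left out. Of the 9 immediate early genes tested, 2 were called higher in limma, 0 in DESeq2, 1 among genes of at least 5 CPM (Arc, Fos, Junb and Npas4 are below that and were not fitted there) and 0 to 2 with 1 library left out. Called lower were 2 in limma, 1 in DESeq2 and 1 to 3 with 1 library left out. TMM or library-total scaling, pseudocounts of 0.5 and 5, and no filter left these counts at 2 and 2, as did edgeR and the block. Log2 fold changes that changed sign with 1 library left out ran from −0.751 to 0.0151 for Fos, −0.13 to 0.27 for Junb, −0.57 to 0.82 for Egr1, −0.33 to 0.24 for Npas4, −0.0365 to 0.0945 for Ier5, −0.0334 to 0.0720 for Klf6 and −0.0644 to 0.00768 for Elavl3. Egr1 was also below 0 in edgeR (−0.0249) and DESeq2 (−0.0224). The cause of these changes was not tested. The settings for genes outside the 10 were added after seeing the data. The labels do not say that the set numbers pair a control with a DcpS shRNA culture. Differences between the libraries numbered 2 and 1 correlated at 0.04 over 18110 genes between the groups. Counting error lowers that value, so it cannot decide whether some genes follow the set numbers. Fos, Fosb, Fosl2, Egr1, Npas4 and Nr4a3 were higher in library 2 of both groups, and Jun and Jund were lower. Junb and Arc went in opposite directions in the 2 groups. The numbers were not taken as pairs, since the labels give none, and the block changed no call among the 10. Depth limits Fosb, Npas4, Junb and Arc, with 3 to 76 reads per library.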
